A study of Mus musculus with 8 samples.

Results

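The Krüppel-like factors (KLFs) are a family of DNA-binding transcription factors, and 10 of their genes, *Klf2*, *Klf3*, *Klf4*, *Klf6*, *Klf7*, *Klf9*, *Klf10*, *Klf11*, *Klf13* and *Klf15*, are described here in the retinal pigment epithelium (RPE) of *Bbs8*-/- and *Bbs8*+/+ mice. They were found by symbol from the Ensembl identifiers of the count files, as 10 of the 31053 genes listed. RPE was isolated at postnatal day 29 (P29) from 4 *Bbs8*-/- and 4 *Bbs8*+/+ mice on the C57/Bl6 background, with littermates as controls and sex not determined, and no animal was treated. In *Bbs8*-/- mice the ciliary gene *Bbs8*, listed as *Ttc8* in the annotation, is lost from every cell of the body, so that the retina next to the RPE lacks it as well. The RPE was peeled as sheets from eyecups after removal of cornea, lens and retina and digestion with trypsin, and each animal gave 1 QuantSeq 3′ library.

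KLF proteins end in a run of C2H2 zinc fingers that binds GC-rich and CACCC elements, which the related Sp factors also bind. Their N-terminal parts differ and recruit different partners: KLF3, KLF8 and KLF12 bind the corepressor CtBP, KLF9, KLF10, KLF11, KLF13, KLF14 and KLF16 bind the corepressor SIN3A, and KLF1, KLF2, KLF4, KLF5, KLF6 and KLF7 act mostly as activators. In the eye the family is best known from retinal ganglion cells, where KLF4 and KLF9 restrain and KLF6 and KLF7 promote the growth of axons, and from the corneal epithelium, where KLF4, KLF5 and KLF6 are expressed.

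The 8 libraries held between 2389835 and 3093428 counts on genes, and 3 counts in a library, taken here as the floor, amounted to 1.02 to 1.23 normalised counts-per-million (CPM). A QuantSeq library reads each transcript once near its 3′ end, so that CPM is not divided by gene length and levels of different genes are compared on the CPM scale. *Ttc8* had 105, 142, 144 and 116 counts in *Bbs8*+/+ RPE but 15, 5, 14 and 15 counts in *Bbs8*-/- RPE, and fell by 3.34 on the log2 scale (adjusted p = 2.48e-11, edgeR quasi-likelihood test). The first principal component, with 36.9% of the variance, separated the genotypes, and on the second, with 16.8%, *Bbs8*-/- replicate 1 stood apart at -28.8 while the other *Bbs8*-/- libraries lay between 6.78 and 15.9. For *Klf6* and *Klf9*, and for *Klf15*, whose fold change this library moved by over 1.5 times, values without it are given as well. Summed levels of 18 photoreceptor genes were 56890 to 61380 CPM in *Bbs8*+/+ and 23570 to 24130 CPM in *Bbs8*-/- libraries, those of 16 lens genes 3390 to 3632 and 469 to 524 CPM, and those of 18 RPE genes 42180 to 43280 and 50540 to 54560 CPM. The RPE list had 4 genes up-regulated and 4 down-regulated and a median log2 fold change of -0.04, and its higher sum came from *Ttr*, the transthyretin gene (20970 and 31800 CPM), without which the sums were 21360 to 22240 and 20430 to 21280 CPM. In bulk RNA, fewer cells of a type and less RNA per cell cannot be told apart.

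All 10 KLF genes passed the filter on low counts (1 CPM or more in 4 or more libraries), among 12889 genes tested. In *Bbs8*+/+ RPE the most abundant was *Klf9* with 350.1 ± 49.98 CPM (SD, n = 4), followed by *Klf3* (162 ± 30.1), *Klf4* (99.5 ± 2.51), *Klf13* (64.1 ± 9.16), *Klf2* (57.1 ± 10.6) and *Klf6* (48.4 ± 7.90 CPM). *Klf7* (24.3 ± 6.80), *Klf15* (5.67 ± 2.00), *Klf10* (4.23 ± 1.83) and *Klf11* (1.23 ± 0.649 CPM) closed the order. Neighbours whose ranges overlapped, and whose order is therefore not settled, were *Klf13* and *Klf2*, *Klf2* and *Klf6*, and *Klf15* and *Klf10*. In *Bbs8*-/- RPE the order was *Klf9*, *Klf3*, *Klf6*, *Klf4*, *Klf13*, *Klf2*, *Klf7*, *Klf15*, *Klf10* and *Klf11*, with overlapping ranges for *Klf6* and *Klf4*, *Klf4* and *Klf13*, *Klf2* and *Klf7*, and *Klf15* and *Klf10*. *Klf9* stood at the 97.0 percentile of tested genes by mean level and *Klf11* at the 7.26 percentile, so that the family covered nearly the whole range of abundance in this tissue.

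**Figure D1:**
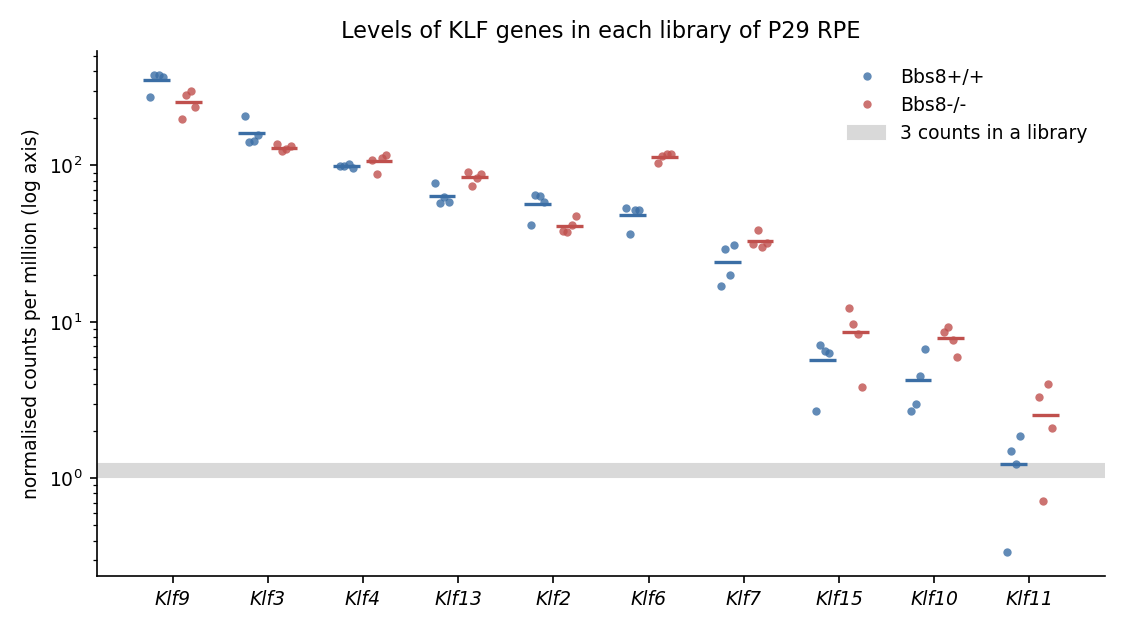
Level of each KLF gene in normalised CPM on a log axis, 1 point per library (*Bbs8*+/+ in blue, *Bbs8*-/- in red, 4 of each), with the mean as a line and the level of 3 counts in a library as a grey band. The red *Klf6* points lie between 104 and 119 CPM, above all blue ones, and *Klf11* lies at the band.

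*Klf6* was up-regulated and *Klf9* was down-regulated in *Bbs8*-/- RPE, and the other 8 KLF genes did not pass an adjusted p of 0.05. Up-regulation was found for 5.46% and down-regulation for 6.80% of all tested genes, and 1 of 10 KLF genes in either direction is near this background. Of the 10 genes, 7 had a positive and 3 a negative log2 fold change, with a median of 0.41. Over all tested genes 6676 were positive and 6213 negative, with a median of 0.02. Among the 7 positive KLF genes, *Klf10*, *Klf11* and *Klf15* had only 1 to 30 counts in a library and standard errors of 0.46 to 0.93. At an unadjusted p under 0.05 there were 5 genes, *Klf6* and *Klf13* with higher and *Klf2*, *Klf3* and *Klf9* with lower means in *Bbs8*-/- RPE. For *Klf6* every *Bbs8*-/- library lay above every *Bbs8*+/+ library, which held for 7.42% of tested genes, and for *Klf3* every *Bbs8*-/- library lay below, which held for 8.64%.

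**Figure D2:**
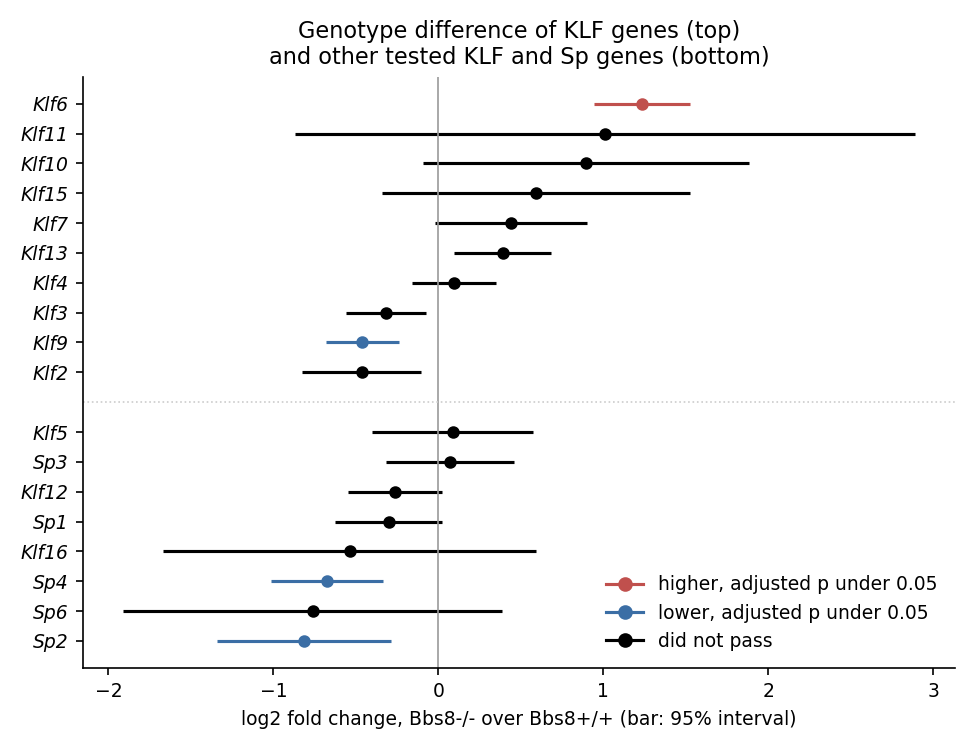
Log2 fold change of *Bbs8*-/- over *Bbs8*+/+ with its 95% interval, for the 10 KLF genes above the dotted line and the 8 other tested KLF and Sp genes below it. *Klf6* at 1.24 passed the test as up-regulated, and *Klf9*, *Sp4* and *Sp2* passed as down-regulated, while the low-count genes *Klf10*, *Klf11*, *Klf15*, *Klf16* and *Sp6* have the widest intervals.

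*Klf6* (ENSMUSG00000000078) encodes an activator that many cell types induce early after injury or serum. It lies on the forward strand at chr13:5861482-5870394 (GRCm38), with 4 exons in its coding transcript and a single annotated coding 3′ end. The *Bbs8*+/+ libraries had 158, 98, 126 and 139 counts, which made 53.6, 36.6, 51.6 and 51.8 CPM. The *Bbs8*-/- libraries had 253, 320, 294 and 340 counts, which made 104, 115, 118 and 119 CPM. All *Bbs8*-/- libraries stood close together and well above the *Bbs8*+/+ libraries, of which replicate 2 was the lowest. The mean rose from 48.4 ± 7.90 to 114 ± 6.82 CPM (SD, n = 4), a 2.35-fold rise and 1.24 on the log2 scale (standard error 0.144, 95% interval 0.94 to 1.53, adjusted p = 2.32e-08, edgeR). *Klf6* ranked 168 among all tested genes by p-value and 162 among the 704 up-regulated genes by fold change. Without *Bbs8*-/- replicate 1 the log2 fold change was 1.28 (adjusted p = 1.62e-07, edgeR).

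*Klf9* (ENSMUSG00000033863) encodes a SIN3A-binding repressor that glucocorticoid and thyroid hormone induce. It lies on the forward strand at chr19:23141226-23168134 (GRCm38), with 2 exons and a single annotated coding 3′ end. The *Bbs8*+/+ libraries had 813, 1011, 930 and 983 counts, or 276, 378, 381 and 366 CPM. The *Bbs8*-/- libraries had 485, 783, 743 and 680 counts, or 199.5, 281, 298 and 238 CPM. The groups overlapped, because *Bbs8*+/+ replicate 1 lay inside the range of the *Bbs8*-/- libraries, and replicate 1 was the lowest library in both genotypes. The mean fell from 350.1 ± 49.98 to 254 ± 44.3 CPM (SD, n = 4), to 0.727 times the *Bbs8*+/+ level, which is -0.46 on the log2 scale (standard error 0.110, 95% interval -0.68 to -0.24, adjusted p = 0.00281, edgeR). By size of the change it ranked 686 among 877 down-regulated genes. The log2 fold change was -0.36 without *Bbs8*-/- replicate 1 (adjusted p = 0.0289), -0.56 without *Bbs8*+/+ replicate 1 (adjusted p = 3.09e-06) and -0.46 without both (adjusted p = 5.56e-05, edgeR). With the biological coefficient of variation fixed at 0.2 for every gene in place of the value of 0.119 estimated for *Klf9*, the call was lost (adjusted p = 0.119, edgeR likelihood ratio test).

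The sequences before the starts of the 2 differentially expressed genes are shown so that GC-rich and CACCC elements and a few common response elements can be seen in place, and no glucocorticoid or thyroid hormone response element was searched. Both are RefSeq promoter sequences of GRCm38.p6 on the forward strand, from 250 to 11 bases before the RefSeq start, printed 5′ to 3′ in lower case with the matches to searched motifs in capitals.
Klf6, chr13:5861239-5861478: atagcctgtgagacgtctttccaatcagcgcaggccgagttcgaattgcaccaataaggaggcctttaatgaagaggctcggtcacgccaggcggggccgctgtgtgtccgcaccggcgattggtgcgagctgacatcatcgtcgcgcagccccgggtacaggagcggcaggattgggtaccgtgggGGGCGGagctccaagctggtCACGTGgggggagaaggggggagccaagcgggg
Klf9, chr19:23140976-23141215: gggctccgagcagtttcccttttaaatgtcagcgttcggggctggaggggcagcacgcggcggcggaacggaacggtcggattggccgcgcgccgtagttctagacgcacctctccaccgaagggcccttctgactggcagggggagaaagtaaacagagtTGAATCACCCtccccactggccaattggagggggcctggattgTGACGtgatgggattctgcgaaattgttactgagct
The motifs searched on both strands were the KLF element CACCC, the GC box GGGCGG, the E-box CACGTG, the CRE half-site TGACG and the AP-1 element TGANTCA. In the *Klf6* sequence GGGCGG began 63 and CACGTG 43 bases before the start. In the *Klf9* sequence TGANTCA began 89 bases before the start and shared bases with CACCC at 84, and TGACG began at 46. Windows of 300 bases, from 250 before to 50 after the start, were found for 9 KLF genes, all but *Klf10*. Of these 9, CACCC was in 6, GGGCGG in 8, CACGTG in 4, TGACG in 6 and TGANTCA in 1, against 57.5%, 35.7%, 7.15%, 20.8% and 7.81% of all 32851 RefSeq windows. The 9 windows had a GC content of 58.3% to 77.7%, against a median of 52.7% over all windows, and GC-rich motifs match more often in such sequence. A match is a description of these letters and no evidence of binding.

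Among the activators other than *Klf6*, none passed the test. *Klf2* (ENSMUSG00000055148, chr8:72319033-72321656), which laminar shear stress induces in endothelium through the kinases MEK5 and ERK5, had 123, 173, 155 and 157 counts in *Bbs8*+/+ and 93, 104, 104 and 136 in *Bbs8*-/- libraries. These were 41.7, 64.6, 63.5 and 58.5 against 38.3, 37.32, 41.7 and 47.6 CPM, and only *Bbs8*+/+ replicate 1 lay within the *Bbs8*-/- range. The log2 fold change was -0.47 (standard error 0.177, adjusted p = 0.0840, edgeR), and -0.59 without that library, where the adjusted p was 0.0194. *Klf4* (ENSMUSG00000003032, chr4:55527143-55532466, reverse strand), one of the factors used to reprogram cells to pluripotency, had 98.7, 99.8, 103 and 96.8 CPM in *Bbs8*+/+ and 108, 88.3, 112 and 117 CPM in *Bbs8*-/- libraries. The *Bbs8*+/+ range lay inside the *Bbs8*-/- range, and the log2 fold change of 0.10 had a 95% interval from -0.16 to 0.35 (adjusted p = 0.722, edgeR). *Klf7* (ENSMUSG00000025959, chr1:64029447-64122282, reverse strand), a factor of neuronal development, had 50, 78, 49 and 83 counts in *Bbs8*+/+ and 76, 107, 75 and 91 in *Bbs8*-/- libraries, or 16.96, 29.1, 20.1 and 30.9 against 31.3, 38.4, 30.1 and 31.9 CPM. Only *Bbs8*+/+ replicate 4 reached into the *Bbs8*-/- range, and the log2 fold change of 0.44 (standard error 0.228) did not pass the test (adjusted p = 0.244, edgeR). *Klf7* shares exon bases with *Gm26649* and *Gm13748* on the other strand, and the strand setting of the counting is not given in the sources used here.

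*Klf3* (ENSMUSG00000029178, chr5:64803388-64832901, forward strand) was the only CtBP-binding gene of the 10. Its *Bbs8*+/+ libraries had 607, 379, 350 and 419 counts and its *Bbs8*-/- libraries 334, 345, 316 and 379, or 206, 142, 143 and 156 against 137, 124, 127 and 133 CPM. The groups did not overlap, but the lowest *Bbs8*+/+ library was only a little above the highest *Bbs8*-/- library, and replicate 1 made up much of the distance. The log2 fold change was -0.32 (standard error 0.119, adjusted p = 0.0800, edgeR), and -0.18 without *Bbs8*+/+ replicate 1 (adjusted p = 0.390), so that this library moved the value by more than any other. *Klf3* shares exon bases with *Gm20033* on the other strand, so that reads of either cannot be told apart where counting ignored strand.

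Of the SIN3A-binding genes other than *Klf9*, *Klf13* (ENSMUSG00000052040, chr7:63886351-63938915, reverse strand), first known as an activator of the chemokine RANTES in T cells, had 228, 153, 154 and 158 counts in *Bbs8*+/+ and 221, 207, 206 and 253 in *Bbs8*-/- libraries. These made 77.3, 57.2, 63.1 and 58.8 against 90.9, 74.3, 82.6 and 88.6 CPM, and again *Bbs8*+/+ replicate 1 alone reached into the other group. The log2 fold change was 0.39 (standard error 0.145, adjusted p = 0.0763, edgeR), and 0.50 with an adjusted p of 0.0201 without that library. *Klf13* was thus on the opposite side of 0 from *Klf9*, which binds the same corepressor. *Klf10* (ENSMUSG00000037465, chr15:38291463-38300706, reverse strand) and *Klf11* (ENSMUSG00000020653, chr12:24651274-24662789, forward strand), both first described as early genes of the TGF-beta response, were low in counts. Only *Klf11* lay near the floor of 3 counts. *Klf10* had 8, 8, 11 and 18 counts in *Bbs8*+/+ and 21, 26, 19 and 17 in *Bbs8*-/- libraries, or 2.71, 2.99, 4.51 and 6.70 against 8.64, 9.33, 7.62 and 5.95 CPM. Only *Bbs8*+/+ replicate 4 reached into the *Bbs8*-/- range, and the log2 fold change of 0.90 (standard error 0.486) did not pass the test (adjusted p = 0.274, edgeR). *Klf11* had 1, 4, 3 and 5 counts in *Bbs8*+/+ and 8, 2, 10 and 6 in *Bbs8*-/- libraries, and its 95% interval from -0.87 to 2.89 leaves the direction of a change open at this depth (adjusted p = 0.575, edgeR).

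*Klf15* (ENSMUSG00000030087, chr6:90462576-90475238, forward strand), a glucocorticoid-responsive regulator of amino acid breakdown and gluconeogenesis, had 8, 19, 16 and 17 counts in *Bbs8*+/+ and 30, 27, 21 and 11 in *Bbs8*-/- libraries. In CPM these were 2.71, 7.10, 6.55 and 6.33 against 12.3, 9.69, 8.42 and 3.85. Of the *Bbs8*+/+ libraries 3 lay inside the range of the *Bbs8*-/- libraries, and the log2 fold change of 0.59 (standard error 0.460) did not pass the test (adjusted p = 0.490, edgeR). It was 0.37 without *Bbs8*-/- replicate 1 (adjusted p = 0.737) and 0.36 without *Bbs8*+/+ replicate 1 (adjusted p = 0.747, edgeR). These were the highest and the lowest library of their genotypes.

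Together the 10 genes had 775.6 to 837.5 CPM in *Bbs8*+/+ and 733.8 to 828.9 CPM in *Bbs8*-/- libraries, ranges that overlapped (816 ± 28.3 against 782 ± 39.0, SD, n = 4). The mean shares of *Klf9* and *Klf6* within this sum differed between the genotypes. *Klf9* had 42.8% of the counts of these 10 genes in *Bbs8*+/+ and 32.4% in *Bbs8*-/- RPE, *Klf3* had 19.9% and 16.7%, and *Klf6* had 5.94% and 14.6%. A ratio of the 2 differentially expressed genes does not depend on how libraries are scaled. There were 19.4, 9.69, 13.6 and 14.1 *Klf6* reads per 100 *Klf9* reads in *Bbs8*+/+ RPE and 52.2, 40.9, 39.6 and 50 in *Bbs8*-/- RPE. These follow from the changes given above and are a description, with no test of their own.

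The libraries of a genotype differed more for some KLF genes than counting error gives. For *Klf9* the SD was 49.98 CPM in *Bbs8*+/+ and 44.3 CPM in *Bbs8*-/- RPE, where counting alone would give 11.5 and 9.82 CPM. For *Klf3* in *Bbs8*+/+ RPE it was 30.1 against 7.74 CPM, whereas for *Klf4* in *Bbs8*+/+ RPE it was 2.51 against 6.10 CPM and for *Klf6* in *Bbs8*-/- RPE 6.82 against 6.58 CPM. *Bbs8*+/+ replicate 1 lay below the mean of its genotype by -0.46 for *Klf7*, -0.43 for *Klf2* and -0.33 for *Klf9* on the log2 scale, and above it by 0.36 for *Klf3* and 0.28 for *Klf13*. *Bbs8*-/- replicate 1 lay at -0.33 for *Klf9*, 0.12 for *Klf13*, 0.08 for *Klf3*, -0.10 for *Klf2* and -0.07 for *Klf7*. For the other 5 genes the replicate 1 libraries of *Bbs8*+/+ and *Bbs8*-/- had opposite signs. The values were -0.87 and 0.61 for *Klf15*, -0.95 and 0.48 for *Klf11* and -0.48 and 0.14 for *Klf10*, all low in counts. They were 0.16 and -0.13 for *Klf6*, and close to the mean for *Klf4* (-0.01 and 0.03). Whether these libraries deviate alike over the family was not tested. With both of these libraries left out, an alternative chosen after seeing the data, 4 KLF genes passed the test, as *Klf13* (0.46, adjusted p = 0.0412) and *Klf2* (-0.56, adjusted p = 0.0333, edgeR) joined *Klf6* and *Klf9*.

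**Figure D3:**
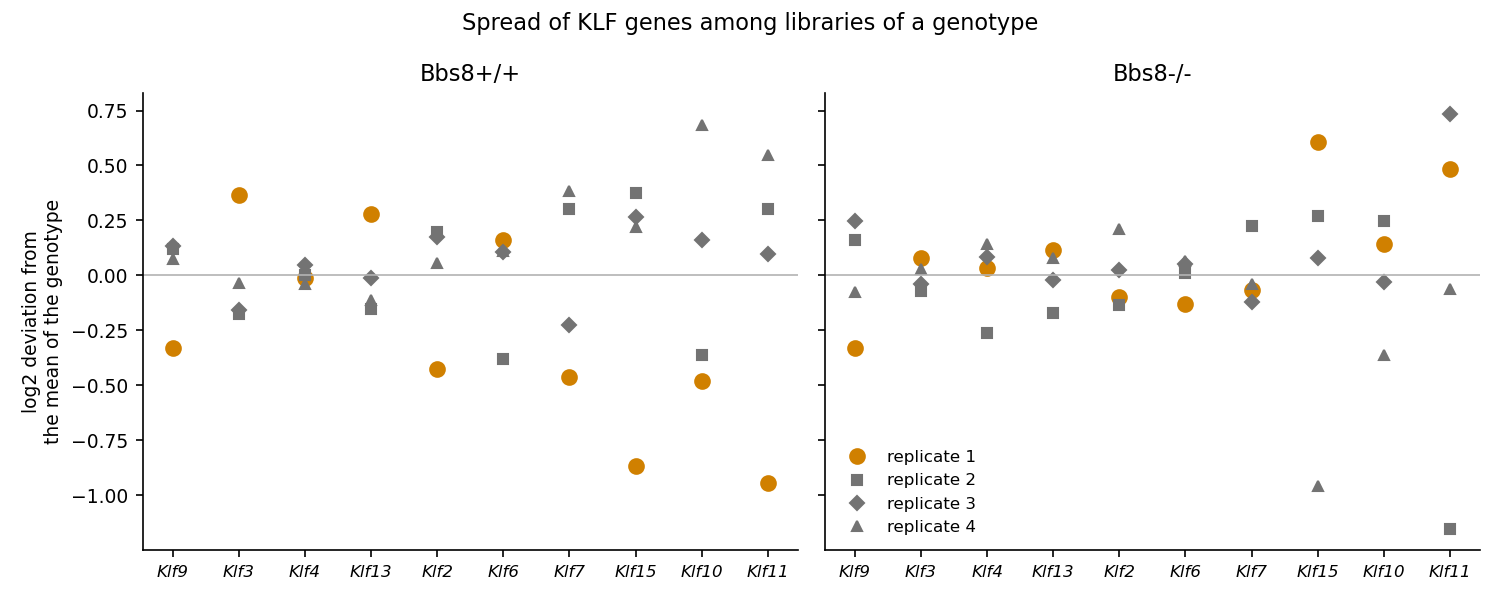
Log2 deviation of each library from the mean of its genotype for the 10 KLF genes in order of level, *Bbs8*+/+ on the left and *Bbs8*-/- on the right, with replicate 1 in orange and the others in grey. Replicate 1 of *Bbs8*+/+ is the lowest for *Klf9*, *Klf2*, *Klf7*, *Klf15*, *Klf10* and *Klf11* and the highest for *Klf3*, *Klf13* and *Klf6*. Replicate 1 of *Bbs8*-/- is the lowest for *Klf9* and *Klf6* and the highest for *Klf3*, *Klf13* and *Klf15*.

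*Klf6* passed the test in the same direction under all 16 alternatives of scaling, filter, tool, replicate block and left-out library, with log2 fold changes of 1.12 to 1.33. *Klf9* did so too, between -0.56 and -0.36, and among 2 further settings it lost its call only under the fixed coefficient of variation given above. When libraries were scaled by total counts alone, *Klf13* also passed (0.48, adjusted p = 0.0216, edgeR). Under that scaling the log2 fold changes of all genes moved up by a median of 0.09, and 60.6% of differentially expressed genes were up-regulated in place of 44.5%.

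**Figure D4:**
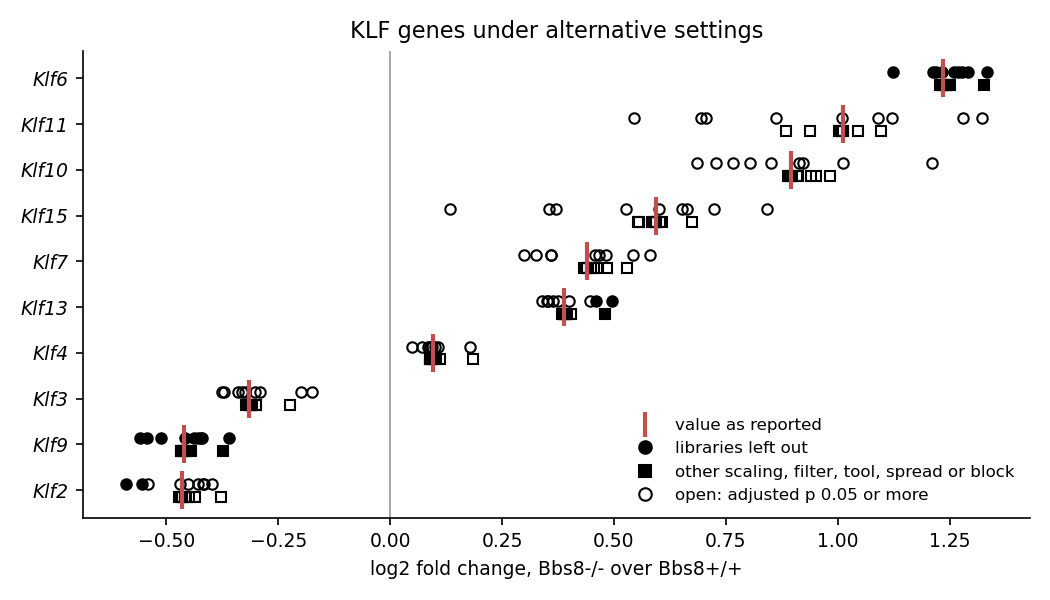
Log2 fold change of each KLF gene as reported (red line), with libraries left out (circles) and under another scaling, filter, tool, estimate of spread or replicate block (squares), filled where the adjusted p was under 0.05. No symbol lies on the other side of 0 from its red line, and *Klf6* symbols lie between 1.12 and 1.33.

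The remaining KLF and Sp genes were less often detected. Of 16 such genes 8 were tested, 0 were up-regulated and 2 were down-regulated by edgeR, DESeq2 and limma-voom alike, and at an unadjusted p under 0.05 the counts were again 0 and 2. The median log2 fold change was -0.42. The down-regulated genes were *Sp4*, a factor of neurons and photoreceptors, with 56.6, 92.7, 109 and 102 CPM in *Bbs8*+/+ and 68.7, 52.0, 54.1 and 50.8 CPM in *Bbs8*-/- libraries (log2 fold change -0.67, adjusted p = 0.00448, edgeR), and *Sp2*, with 30.9, 29.9, 29.1 and 27.6 against 15.2, 14, 10.4 and 26.6 CPM (-0.82, adjusted p = 0.0321). The *Sp4* groups overlapped through 1 library of each genotype, and the *Sp2* groups did not overlap. *Klf5* (22.5 and 23.9 CPM), *Klf12* (84.99 and 70.9), *Klf16* (6.03 and 4.08), *Sp1* (68.2 and 55.4), *Sp3* (36.4 and 38.2) and *Sp6* (6.03 and 3.51 CPM), given as means of *Bbs8*+/+ and *Bbs8*-/- libraries, did not pass. *Klf1*, the erythroid member, had 0 counts in every *Bbs8*+/+ library and 1, 10, 0 and 0 in the *Bbs8*-/- libraries and was not tested, nor were *Klf8*, *Klf14*, *Klf17*, *Sp5*, *Sp7*, *Sp8* and *Sp9*, of which *Klf14*, *Sp5*, *Sp8* and *Sp9* had 0 counts throughout.

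Genes that act with, upstream or downstream of the KLFs were counted in lists of their own. Over all tested genes 5.46% were called higher and 6.80% lower, against which a single call in a list of 5 to 12 genes shows nothing particular to that list. Of 12 tested cofactors 1 was down-regulated, *Sin3a*, the corepressor that KLF9 and KLF13 bind, from 60.2 ± 6.35 to 37.2 ± 6.11 CPM (log2 fold change -0.69, adjusted p = 0.00526, edgeR). The CtBP genes *Ctbp1* and *Ctbp2* had log2 fold changes of 0.08 and 0.01 and did not pass. In the MEK5, ERK5 and MEF2 arm, which induces *Klf2* and *Klf4* in endothelium, 2 of 7 genes were down-regulated. *Mef2c*, also a rod photoreceptor and muscle gene, fell from 290.6 ± 36.2 to 57.9 ± 15.0 CPM (-2.33, adjusted p = 2.01e-16, edgeR), and *Mef2d* fell by 0.37 on the log2 scale (adjusted p = 0.0154), while the kinase genes *Map2k5* and *Mapk7* had log2 fold changes of 0.19 and 0.11 that did not pass. In the TGF-beta arm 1 of 9 genes was up-regulated, the ligand gene *Tgfb2*, from 27.4 ± 3.28 to 62.4 ± 17.3 CPM (1.19, adjusted p = 2.22e-05, edgeR).

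Among 8 tested glucocorticoid genes 1 was up-regulated, the kinase gene *Sgk1*, from 472 ± 21.6 to 573 ± 60.5 CPM (log2 fold change 0.28, adjusted p = 0.0203, edgeR). The receptor gene *Nr3c1* (-0.14) and the receptor targets *Fkbp5* (-0.77) and *Tsc22d3* (-0.06) did not pass. Among 7 thyroid hormone genes the corepressor gene *Ncor1* was down-regulated, from 564 ± 50.1 to 382 ± 17.1 CPM (-0.56, adjusted p = 2.67e-06, edgeR), and the receptor genes *Thra* (-0.19) and *Thrb* (-0.29) did not pass. Of 15 clock genes 3 were up-regulated, the repressor gene *Bhlhe40* (0.62, adjusted p = 0.00254), *Clock* (0.48, adjusted p = 0.0153) and *Hlf* (0.35, adjusted p = 0.0325, edgeR). Of 6 targets of KLF2 and KLF4 known from endothelium 0 passed by edgeR, DESeq2 or limma-voom, and 0 had an unadjusted p under 0.05. Of 5 tested targets of KLF15 1 was up-regulated, the proline dehydrogenase gene *Prodh* (32.9 ± 7.46 to 64.8 ± 8.49 CPM, 0.98, adjusted p = 0.000129, edgeR).

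Immediate early genes, which cells induce within minutes of a stimulus and to which *Klf6* is often counted, had the most calls of these lists. Of 19 tested genes 7 were up-regulated and 0 down-regulated (9 and 0 at an unadjusted p under 0.05, 8 and 0 by DESeq2), with a median log2 fold change of 0.40. *Fos* rose from 249 ± 23.8 to 499.8 ± 34.1 CPM (1.01, adjusted p = 2.77e-11), *Fosb* by 0.73 (adjusted p = 1.18e-06), *Jun* by 0.65 (adjusted p = 1.6e-06) and *Egr1* by 0.59 (adjusted p = 3.47e-06, edgeR). Summed over all 20 listed immediate early genes, the level was 1645 to 1813 CPM in *Bbs8*+/+ and 2421 to 2616 CPM in *Bbs8*-/- libraries. Much of this rise came from *Fos*, *Fosb* (174 and 288 CPM), *Jun* (214 and 336) and *Egr1* (288 and 432). Of the 19 tested genes 12 did not pass, and 4 had a negative log2 fold change.

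**Figure D5:**
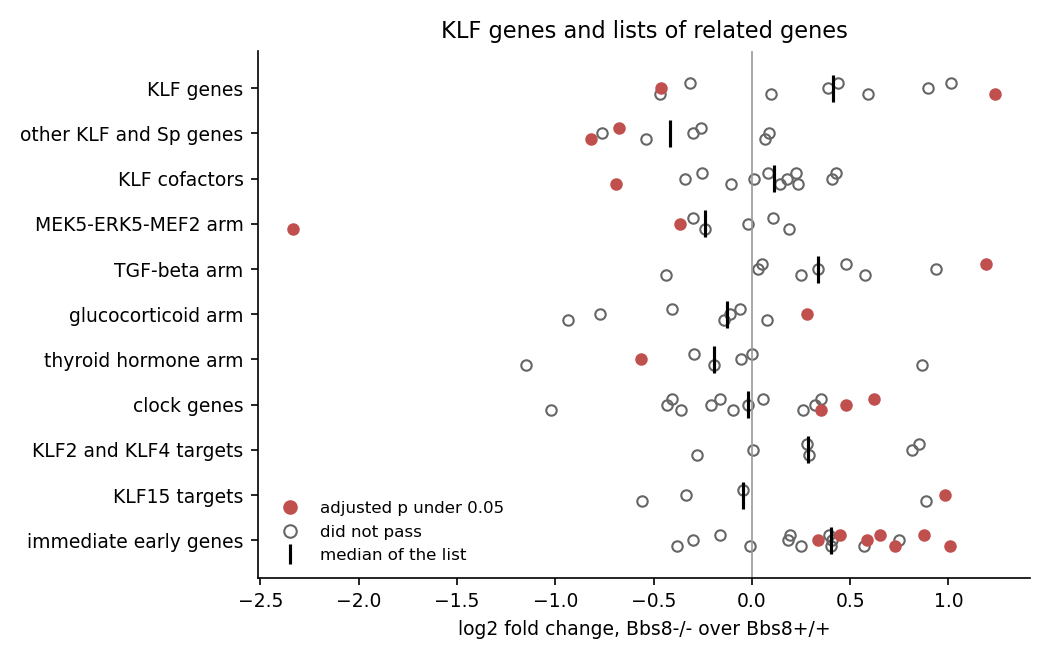
Log2 fold change of each tested gene in the KLF genes and 10 lists of related genes, with genes past an adjusted p of 0.05 in red and the median of each list as a black line. The immediate early genes hold 7 red points, all to the right of 0, and the MEK5-ERK5-MEF2 arm holds *Mef2c* at -2.33.

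The genes whose level over the 8 libraries was most like that of *Klf6*, by Pearson correlation of log2 CPM among 8435 genes averaging 10 CPM or more, were *Atxn7* (r = 0.990), *Gnb3* (r = 0.986) and *Id2* (r = 0.986). After each genotype was centred on its own mean, the correlations were 0.876, 0.836 and 0.764. *Gnb3*, a transducin subunit of cones and bipolar cells, had 36.1 and 226 CPM, *Id2*, an inhibitor of helix-loop-helix factors, 140 and 266.7 CPM, and *Atxn7*, a subunit of a chromatin-modifying complex, 34.6 and 43.6 CPM in *Bbs8*+/+ and *Bbs8*-/- RPE. For *Klf9* they were *Cdc34* (r = 0.988), *Pbx3* (r = 0.982) and *Adra2c* (r = 0.974), with 0.98, 0.99 and 0.98 after centring. By edgeR, *Atxn7* (adjusted p = 0.283), *Cdc34* (adjusted p = 0.0606) and *Adra2c* (adjusted p = 0.194) did not pass, while *Gnb3*, *Id2* and *Pbx3* did. The 8 libraries share their genotype and depth with every gene, and each set was picked as the highest of many, so these values are a description.

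Markers of other cells that express KLF genes were summed beside these results. For endothelium, where *Klf2* and *Klf4* are prominent, 10 of 14 genes were tested, 0 passed by edgeR, DESeq2 or limma-voom, 0 had an unadjusted p under 0.05, and the sums were 43.8 to 52.3 CPM in *Bbs8*+/+ and 50.2 to 59.2 CPM in *Bbs8*-/- libraries, with *Erg* at 0 in all. For the ocular surface epithelium, which expresses *Klf4*, *Klf5* and *Klf6*, 5 of 7 tested genes of 11 were up-regulated and the sums were 21.7 to 30.2 and 106 to 121 CPM, with *Krt12*, the keratin that defines corneal epithelium, at 0 in all. For Müller glia 4 of 8 genes were up-regulated, with sums of 6482 to 7213 and 7940 to 8489 CPM. Most of these sums came from *Apoe* (means of 4117 and 4865 CPM), *Glul* (1201 and 1712) and *Car14* (1058 and 1022). The sums therefore follow these genes rather than the whole list. Of 6 tested erythroid genes 5 were down-regulated, with sums of 5165 to 5729 and 1990 to 2222 CPM and *Epb42* and *Gata1* at 0 in all. Of 10 tested immune genes 0 passed by edgeR, DESeq2 or limma-voom and 1 had an unadjusted p under 0.05, with sums of 345 to 473 and 311 to 361 CPM, and of 8 fibroblast genes 2 were down-regulated, with sums of 1044 to 1404 and 976.5 to 1168 CPM. The immune sums came mostly from *Csf1r*, with means of 319 and 263 CPM in *Bbs8*+/+ and *Bbs8*-/- libraries. The part of these cells in the *Klf6* and *Klf9* differences was not tested.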

How the data were processed

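Per the labels, QuantSeq 3′ libraries were made from 30 ng of total RNA and sequenced in single-end mode to 100 bp. BBDuk was used by the authors for trimming, STAR for alignment to mm10 and htseq-count for counting on Ensembl gene models, and they deposited raw counts of unique reads without normalization or filter. Reads in rows naming no gene (51.0% to 54.2% of the reads of a library, with 32.8% to 34.5% of its reads not uniquely mapped) were left out. In R 4.3.3, counts were scaled by TMM, genes reaching 1 CPM (counts-per-million) in 4 or more of 8 libraries were kept, and genotypes were compared with edgeR 4.0.16 (quasi-likelihood F test, two-sided, genotype only), with Benjamini-Hochberg adjustment over 12889 genes and a threshold of 0.05. Alternatives were library size alone, TMM without photoreceptor, lens and erythroid genes, DESeq2 1.42.0, limma-voom (limma 3.58.1), the likelihood ratio test, no filter or 5 CPM, a replicate block and each library left out. Leaving out both libraries numbered 1, and a fixed coefficient of variation, were added after seeing the data.

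Members and gene lists were chosen with earlier results of these data known. The genes named were *Ttc8*, all 10 KLF genes, every other tested KLF or Sp gene, up to 4 differentially expressed genes per list with the lowest adjusted p, the 3 genes most correlated with *Klf6* and with *Klf9*, and the marker genes at 0 in all libraries. Genes named from a list without passing the test (*Ctbp1*, *Ctbp2*, *Map2k5*, *Mapk7*, *Nr3c1*, *Fkbp5*, *Tsc22d3*, *Thra* and *Thrb*) were chosen for their role after their values were seen, and so were *Ttr* and the KLF and Sp genes named as not tested. *Apoe*, *Glul*, *Car14* and *Csf1r* were named for their high levels, also after their values were seen. Of the identifiers, 30934 of 31053 matched a symbol, *Cyr61* was matched as *Ccn1*, and *Ahsp* was not matched. Gene coordinates are from GENCODE M21. No 2 libraries had identical counts. Each library is 1 animal. For *Klf11*, near the floor of 3 counts, the SD was 0.649 CPM in *Bbs8*+/+ and 1.44 CPM in *Bbs8*-/- RPE, where counting alone would give 0.684 and 0.994 CPM.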

Additional observations from a re-analysis of the deposited data

Results flagged for a closer look

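Each KLF gene was examined in each genotype for a library far from the other 3, which made 20 groups, and 2 were found where chance flags about 1 in 20. For *Klf6*, *Bbs8*+/+ replicate 2 lay at 36.6 CPM while the other *Bbs8*+/+ libraries lay between 51.6 and 53.6 CPM, and the distance to the nearest was 0.883 of the whole range. Without this library the log2 fold change of *Klf6* was 1.12 (adjusted p = 8e-07, edgeR). For *Klf9*, *Bbs8*+/+ replicate 1 lay at 275.7 CPM while the others lay between 366 and 381 CPM, with a distance of 0.858 of the range. Without it the log2 fold change of *Klf9* was -0.56 (adjusted p = 3.09e-06, edgeR). In both cases the genotype difference passed the threshold with and without the library.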

How the results depend on the processing

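No KLF gene changed direction under any alternative. The count of KLF genes past the threshold was 2 as reported, 1 higher and 1 lower in *Bbs8*-/- RPE. Scaling by library size alone gave 2 higher (*Klf13* at 0.48 joined), with 1008 genes higher and 654 lower in all, in place of 704 and 877. When single libraries were left out, the counts ranged from 2 to 4 past the threshold, 1 to 2 higher and 1 to 2 lower; the upper values came without *Bbs8*+/+ replicate 1, where *Klf13* (0.50) and *Klf2* (-0.59) passed. Without replicate 1 of both genotypes the counts were 4, 2 and 2. With the coefficient of variation fixed at 0.2 there were 2 higher and 0 lower (edgeR likelihood ratio test), and 2 lower at an unadjusted p under 0.05. Under this setting *Klf9* (-0.46, adjusted p = 0.119) did not pass and *Klf10* did (0.90, adjusted p = 0.0453). DESeq2, which estimated its own spread for each gene, gave 1 lower past the threshold. The labels do not say whether replicate numbers pair the animals. Deviations of libraries with the same number correlated at -0.055 to 0.005 over all tested genes averaging 10 CPM or more. That shows no shared deviation over these genes as a whole. It does not speak for single genes and cannot decide whether animals with the same number share a litter. With the replicate block, the counts were 2, 1 and 1, with 650 genes higher and 827 lower, and no KLF call changed. A filter of 5 CPM left *Klf11* untested. Depth limits *Klf10*, *Klf11* and *Klf15*, whose libraries had 1 to 30 counts.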
